A study of Larimichthys crocea with 4 samples.

Results

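The transcripts described here encode the proteins that carry, oxidize, store and regulate iron in the liver and blood of the large yellow croaker (Larimichthys crocea), and those that bind free hemoglobin and heme. They are transferrin, ceruloplasmin, ferritin, haptoglobin, the warm temperature acclimation protein 65 kDa (WAP65) and hepcidin. Members were chosen by name, with earlier results of these data known and with transferrin receptors left out of the choice. Names were sought in the best hit that the deposited annotation gives each unigene in the Nr protein database. The letters of these names matched 20 of 57216 unigenes. Of these, 6 encode a phosphatase of pyruvate dehydrogenase, whose full name contains the word "transferring", and they were set apart, so that 14 unigenes are described. No hit is named hemopexin, but the Swiss-Prot hit of the WAP65 unigene is hemopexin. A unigene is a transcript assembled from reads without a genome.

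Liver RNA was sequenced from fish fasted for 21 d, from fish under cold stress for 12 h, from fish under thermal stress for 12 h and from untreated fish under normal feeding. There is 1 library per condition, and for fasting and normal feeding the study's methods describe mRNA of several fish per group. The stress temperatures and the number of fish behind the stress libraries are not given in the sources used here. With 1 library per condition the spread between fish cannot be measured, so every interval and p-value below covers counting error only and compares libraries, not conditions.

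Transferrin carries ferric iron in plasma, ceruloplasmin is a copper protein that oxidizes ferrous iron before transferrin binds it, and ferritin is the shell in which cells store iron. Haptoglobin binds hemoglobin released from red blood cells, and hemopexin, of which WAP65 is the fish counterpart, binds free heme. Hepcidin is a liver peptide that in mammals causes the iron exporter ferroportin to be degraded and so lowers plasma iron, and in fish some hepcidins are also known as antimicrobial peptides. The liver is the main source of these plasma proteins in vertebrates, and several of them are acute-phase proteins in mammals.

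The fasting library held 19.5 M fragments, the cold stress library 17.0 M, the thermal stress library 17.9 M and the normal feeding library 17.5 M, where M stands for 1000000. Where no fragment was found, as many as 3 may have been missed, or 0.154, 0.176, 0.167 and 0.171 fragments per M in the same order. Markers of hepatocytes (6 of 7 found by name, 101 unigenes) held 7.05% of the fragments in the fasting library, 4.41% in the cold stress library, 3.50% in the thermal stress library and 5.26% in the normal feeding library. Apolipoprotein A-I alone made up 5.55%, 1.93%, 1.39% and 2.24% in the same order, and prothrombin was the marker with no unigene by name. Without apolipoprotein A-I the other 5 markers held 1.51%, 2.48%, 2.12% and 3.03% in the same order. The sum of the list was thus highest in the fasting library with it and lowest there without it. Antithrombin was also highest in the fasting library (0.170%, against 0.0848% with normal feeding). Apolipoprotein B, the fibrinogen chains, complement C3 and vitronectin were lowest there. Digestive enzymes of exocrine pancreas (5 of 6 found, 37 unigenes, no alpha-amylase by name) held 9.43% in the fasting library, 5.20% in the cold stress library, 3.92% in the thermal stress library and 3.71% in the normal feeding library. All 5 of these enzyme groups had their highest share in the fasting library. Red blood cell markers (all 3 found, 15 unigenes) held between 0.0352% and 0.0717%, and macrophage markers (4 of 5 found, 29 unigenes) between 0.0162% and 0.0234%. Thermal stress was lowest and normal feeding highest for both sums, and among single markers only for the hemoglobin chains. Erythroid 5-aminolevulinate synthase (0.00139%) and CD163 (0.0169%) were highest in the fasting library, and band 3 (0.000588%) and CSF1R (0.00411%) in the cold stress library. Mannose receptor 1 and mpeg1 were lowest in the fasting library. The part of these cell types in the results below was not tested.

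The 14 members together held 4.06% of the fragments in the fasting library, 7.11% in the cold stress library, 8.40% in the thermal stress library and 8.48% in the normal feeding library. In such bulk samples fewer cells of a type and less RNA per cell cannot be told apart. A member was called when its FPKM (fragments per kb of unigene and M fragments in the library) differed at least 2-fold and a two-sided exact test on its fragments, binomial with the library totals as scaling, gave an unadjusted p under 0.05. The plot of FPKM by library shows the 11 members that held fragments in every library.

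**Figure D1:**
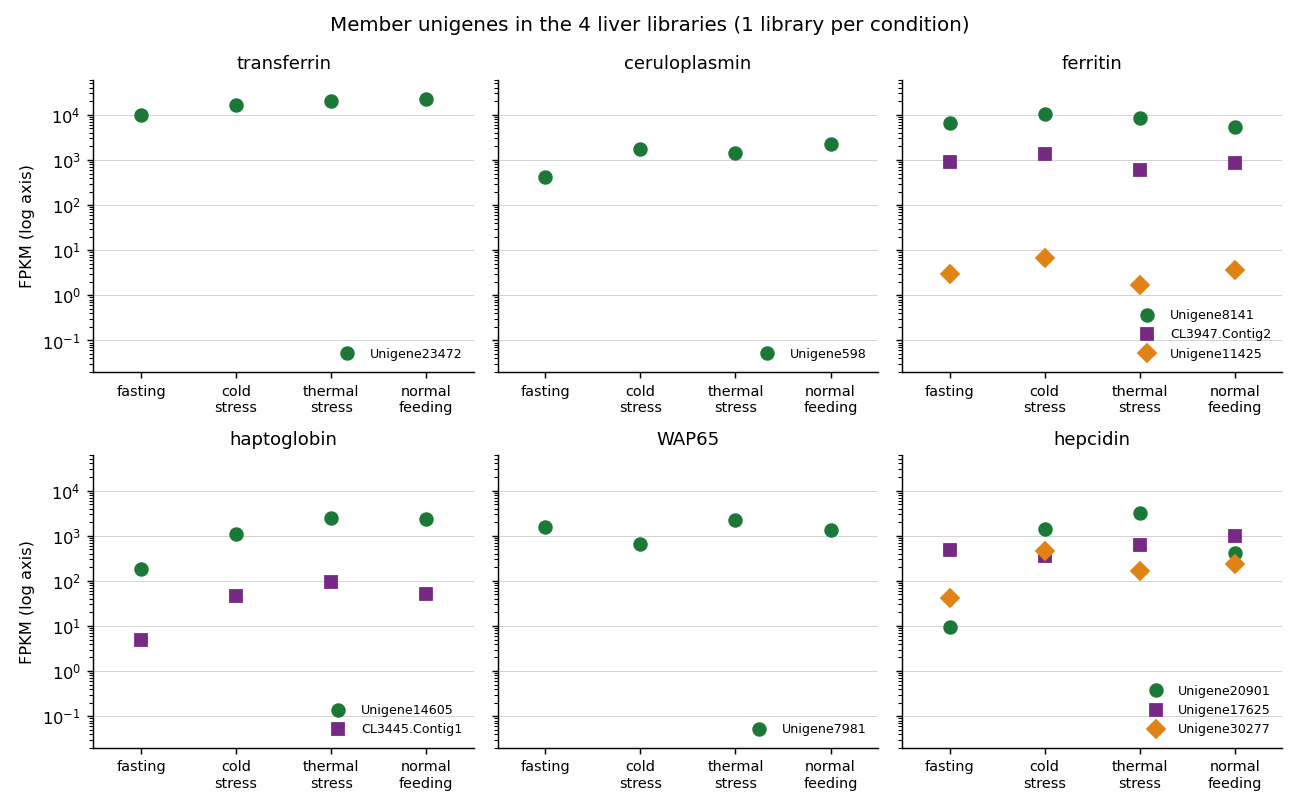
FPKM (log axis) of the 11 member unigenes with fragments in every library, in 1 panel per protein, for the fasting, cold stress, thermal stress and normal feeding libraries. Each point is 1 unigene in 1 library. Transferrin was highest in every library (10030.4 FPKM with fasting and 22590.1 FPKM with normal feeding), and hepcidin Unigene20901 spanned the widest range (9.24 to 3225 FPKM).

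Against normal feeding, the fasting library had 0 members higher, 8 lower and 4 not called, of 12 with a fragment in either library. Over all unigenes 12.8% were called higher and 18.2% lower. The median log2 ratio of fasting over normal feeding was -1.09 for the 12 members and -0.10 over the 52948 unigenes in which at least 1 of the libraries had more than 3 fragments. Here and below, fragments at or under 3 are set to 3 in medians. The 8 lower members were the unigenes of transferrin, ceruloplasmin, both haptoglobins and all 3 hepcidins, and 1 ferritin unigene (0 fragments with fasting, 5 with normal feeding). The 4 members not called were the WAP65 unigene and 3 ferritin unigenes.

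Against normal feeding, the cold stress library had 3 members higher, 3 lower and 8 not called, of 14. Over all unigenes 20.8% were called higher and 13.8% lower, so that the number of members higher lies near the background share. Of the 3 higher members, 2 were assembled from 1 library and had fragments in the cold stress library alone. The third was hepcidin Unigene20901. The 3 lower members were WAP65, haptoglobin Unigene14605 and hepcidin Unigene17625. The median log2 ratio was 0.26 for the 14 members and 0.18 over all unigenes.

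Against normal feeding, the thermal stress library had 1 member higher, 2 lower and 9 not called, of 12. Over all unigenes 9.60% were called higher and 16.1% lower, so both counts lie near the background. The higher member was hepcidin Unigene20901, and the lower members were the scarce ferritins Unigene11425 and Unigene38250. The median log2 ratio was -0.31 for the 12 members and -0.19 over all unigenes.

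Between the stresses, 4 members were higher and 5 lower under thermal than under cold stress, and 4 were not called, of 13. Over all unigenes 12.2% were called higher and 24.7% lower. The 4 higher members were WAP65, both haptoglobins and hepcidin Unigene20901. The 5 lower members were hepcidin Unigene30277 and 4 ferritin unigenes, 2 of which had 0 fragments in the thermal stress library. The median log2 ratio was -0.24 for the 13 members and -0.40 over all unigenes. The 3 comparisons with normal feeding share that library, so they are not independent of each other. Ferritins CL3947.Contig1, Unigene34054 and Unigene38250 were each assembled from 1 library, so the direction of any call on them was set in advance. The members with fragments in every library, a choice added after seeing the data, gave 0 higher and 7 lower for fasting. They gave 1 and 3 for cold stress, 1 and 1 for thermal stress, and 4 and 3 between the stresses. No share over unigenes chosen in this way was made.

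TMM normalization, in place of library totals, moves the log2 ratios of every unigene by 0.12 for fasting, -0.21 for cold stress and 0.15 for thermal stress, each over normal feeding, and by 0.35 for thermal over cold stress. With it the split of members became 2 higher and 0 lower for thermal stress over normal feeding, and 5 higher and 4 lower for thermal over cold stress. The background then was 12.2% higher and 12.8% lower for thermal stress over normal feeding, and 17.9% higher and 17.5% lower for thermal over cold stress. For fasting the members were 0 higher and 7 lower against a background of 14.3% and 16.1%. For cold stress over normal feeding they were 3 higher and 4 lower against a background of 16.5% and 18.2%.

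**Figure D2:**
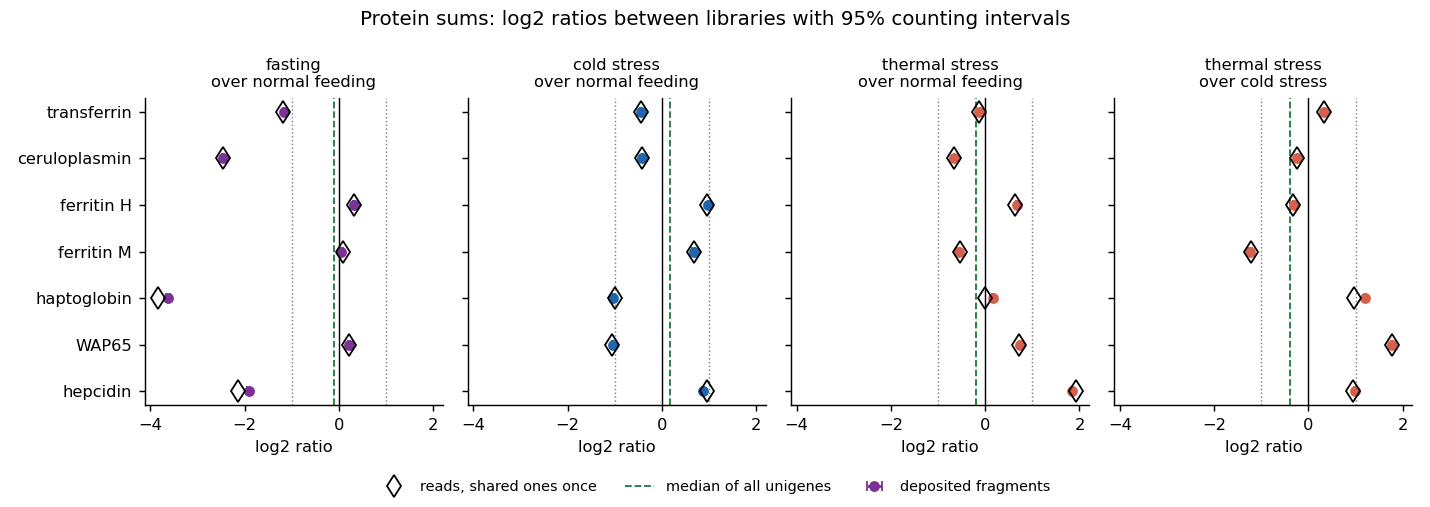
Log2 ratios of the fragments summed over the unigenes of each protein, with 1 panel per comparison and the first-named library over the second. Filled points are deposited fragments with 95% counting intervals, which are mostly narrower than the points. Open diamonds count reads shared between unigenes once, scaled to the fragment totals. Dotted lines mark 2-fold and the dashed green line marks the median of all unigenes. Fasting shows the lowest ratios, for haptoglobin (-3.63) and ceruloplasmin (-2.46).

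Transferrin, the iron carrier of plasma, was represented by 1 unigene (Unigene23472, 2605 bp) that was the most abundant of all unigenes by fragments in 3 of the libraries and had rank 4 in the fasting library. It had 510303 fragments in the fasting library, 732239 in the cold stress library, 968735 in the thermal stress library and 1029474 in the normal feeding library. These are 2.61%, 4.30%, 5.41% and 5.88% of the fragments, in the same order. Fasting stood apart as the lowest library, and thermal stress and normal feeding lay close together. The log2 ratio of fasting over normal feeding was -1.17 (95% interval -1.18 to -1.17), a 2.25-fold downregulation, which fell short of 2-fold with median-of-ratios size factors (-0.99). The ratios over normal feeding were -0.45 for cold stress and -0.12 for thermal stress, and neither was called. The value for thermal stress changed sign under both TMM (0.02) and median-of-ratios scaling (0.03). No read on this unigene fitted another place.

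Ceruloplasmin (Unigene598, 5342 bp) also fell with fasting, by more than transferrin did on the log2 scale. It had 43810 fragments in the fasting library, 157065 in the cold stress library, 139879 in the thermal stress library and 216084 in the normal feeding library. Its FPKM was 419.9 in the fasting library, 1727 in the cold stress library, 1461 in the thermal stress library and 2312 in the normal feeding library. Normal feeding was highest, the stress libraries lay between, and fasting was lowest. The log2 ratio of fasting over normal feeding was -2.46 (95% interval -2.48 to -2.45), a 5.51-fold downregulation. Cold stress (-0.42) and thermal stress (-0.66) were not called. Thermal over cold stress gave -0.24, and with TMM factors it was 0.11.

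Ferritin, the store of iron inside cells, had 6 unigenes in 2 abundant forms and 4 scarce ones. The H subunit (Unigene8141, 1155 bp), whose ferroxidase center oxidizes iron as it enters the shell, had 151753 fragments in the fasting library, 209227 in the cold stress library, 177529 in the thermal stress library and 108664 in the normal feeding library. Here normal feeding was the lowest library, in contrast to its place for transferrin and ceruloplasmin. None of the ratios over normal feeding was called: 0.32 for fasting, 0.98 for cold stress (95% interval 0.97 to 1.00) and 0.67 for thermal stress. The cold stress value is 1.98-fold, just short of the threshold, and it passed at 1.01 when digestive enzymes were left out of the library totals, while TMM (0.78) and median-of-ratios factors (0.80) moved it farther below. Thermal over cold stress gave -0.31, and with TMM factors 0.04.

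The M subunit (CL3947.Contig2, 1309 bp), a form of fish and amphibians, had 23139 fragments in the fasting library, 30843 in the cold stress library, 13863 in the thermal stress library and 19955 in the normal feeding library. Cold stress was again highest, but thermal stress was lowest, unlike for the H subunit. The M subunit, with 29 fragments of a short second contig (CL3947.Contig1, 212 bp) in the cold stress library, was 2.34-fold lower under thermal than under cold stress (log2 ratio -1.23, 95% interval -1.26 to -1.20). That call was lost with TMM (-0.88) and with median-of-ratios factors (-0.89). Over normal feeding the log2 ratios were 0.05 for fasting, 0.67 for cold stress and -0.56 for thermal stress, none of them called. The FPKM of the H subunit was 7.43 times that of the M subunit in the fasting library, 7.64 times in the cold stress library, 14.5 times in the thermal stress library and 6.17 times in the normal feeding library.

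The scarce ferritins carried few fragments. Unigene11425, with a ferritin of the sea bass Dicentrarchus labrax as best hit, had 51 fragments in the fasting library, 102 in the cold stress library, 27 in the thermal stress library and 57 in the normal feeding library. It was lower under thermal stress than under normal feeding (log2 ratio -1.11, 95% interval -1.83 to -0.43) and than under cold stress (-1.99, -2.66 to -1.37). The first of these calls was lost with TMM (-0.97) and with median-of-ratios factors (-0.96). CL3947.Contig1 was seen only in the cold stress library. Against the 3 fragments that a count of 0 allows it was 9.94-fold higher there than under normal feeding (lower 95% limit of the log2 ratio 2.92). Since the contig was assembled from 1 library, this difference is not a test. A further unigene found in the cold stress library alone, Unigene34054 with 21 fragments, has human ferritin light chain as its best hit. Of 54 unigenes with a human best hit, 28 had fragments in the cold stress library alone and 0 in any other library alone, whereas of all 57216 unigenes 452 had fragments in the cold stress library alone. Unigene38250, with an insect secreted ferritin as best hit, had 5 fragments with normal feeding and 0 elsewhere. Against a floor of 3 fragments it was 1.86-fold lower in the fasting library than in the normal feeding library, so its call there rests on the 0. The upper 95% limit of that log2 ratio was -0.03.

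Haptoglobin, the scavenger of hemoglobin, showed the largest fall of any protein sum with fasting. Unigene14605 (1104 bp) had 3993 fragments in the fasting library, 20520 in the cold stress library, 49771 in the thermal stress library and 44561 in the normal feeding library. CL3445.Contig1 (1798 bp) had 174, 1384, 3079 and 1586 fragments in the same order. Both were lowest in the fasting library and highest in the thermal stress library. The sum of both was 12.4-fold downregulated in the fasting library (log2 ratio of fasting over normal feeding -3.63, 95% interval -3.67 to -3.58). In the cold stress library it was lower than in the normal feeding library (-1.04, -1.06 to -1.01), and thermal over normal feeding gave 0.16, which was not called (CL3445.Contig1 alone gave 0.92, and was called at 1.07 with TMM factors). Under thermal stress the sum was higher than under cold stress (1.20, 1.17 to 1.22).

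Most reads on the haptoglobin unigenes fitted more than 1 place, nearly the same number on each of the 2 unigenes, and the deposited fragments leave most such reads out. Over all unigenes with at least 50 fragments and no shared reads, the median number of uniquely placed reads per fragment was between 1.84 and 1.86 in the 4 libraries. For unigenes with over 50% shared reads it was between 1.65 and 1.74, against 9.03 to 9.29 placed reads in all. On Unigene14605 the shared reads were 82.9% of placed reads in the fasting library, 86.3% in the cold stress library, 83.7% in the thermal stress library and 85.3% in the normal feeding library. The coverage depth of this unigene, which includes shared reads, was 3675 reads per base in the fasting library, 22960 in the cold stress library, 47489 in the thermal stress library and 47007 in the normal feeding library. The depth of ceruloplasmin was 1463, 5241, 4671 and 7210.2 reads per base in the same order, so that haptoglobin lay above ceruloplasmin by depth in every library. By FPKM, haptoglobin Unigene14605 lay below ceruloplasmin in the fasting and cold stress libraries, at 185.2 and 1092 FPKM, and almost level with it under normal feeding (2307 FPKM).

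With the shared reads counted once and scaled to the fragment totals, the haptoglobin sum was 14.2-fold lower in the fasting library than in the normal feeding library (log2 ratio -3.83). The ratio of cold stress over normal feeding became -0.99 and that of thermal over cold stress 0.97, both just short of 2-fold. Thermal over normal feeding, 0.16 with fragments, was -0.01 with shared reads counted once. Of the 3 haptoglobin sums called with fragments, the fall with fasting kept its call. The fragment totals used as scaling leave most shared reads out, and the libraries differed in the share of such reads. They were 51.0% of all placed reads in the fasting library, 56.5% under cold stress, 56.2% under thermal stress and 60.05% with normal feeding. The part of this scaling in the ratios was not tested.

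**Figure D3:**
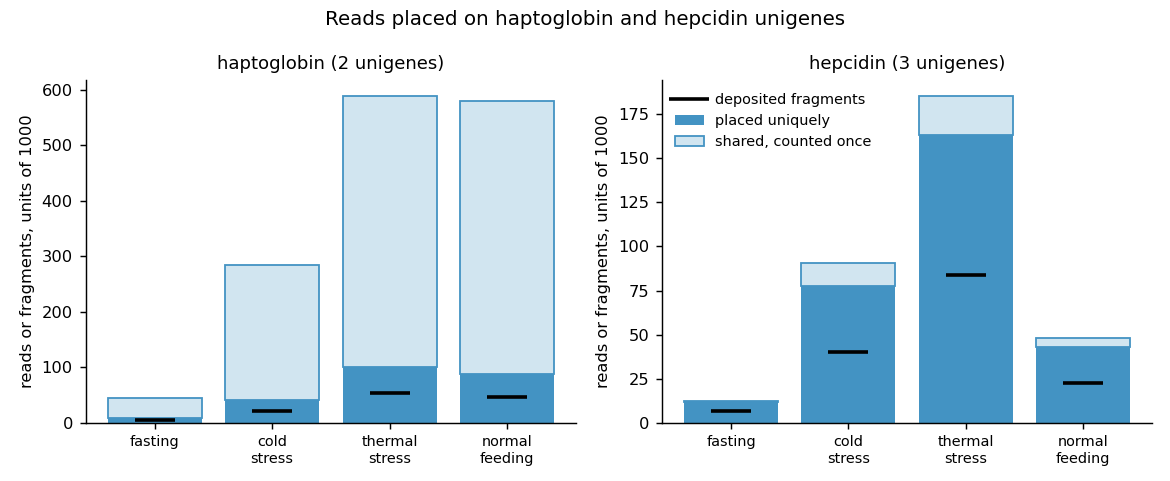
Reads placed on the 2 haptoglobin unigenes and on the 3 hepcidin unigenes in each library, on a y axis in units of 1000, split into uniquely placed reads (dark) and reads shared between unigenes, counted once (light). Black marks give the deposited fragments. Shared reads are 82.4% to 85.5% of haptoglobin reads and 1.50% to 14.8% of hepcidin reads.

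WAP65, the heme binder, was the plasma protein of this group that did not fall with fasting. The single unigene (Unigene7981, 1746 bp), whose best hit is the second form of WAP65, had 53082 fragments in the fasting library, 19225 in the cold stress library, 69158 in the thermal stress library and 40755 in the normal feeding library. Thermal stress was highest and cold stress lowest, with fasting and normal feeding between them. WAP65 was 2.06-fold lower in the cold stress library than in the normal feeding library (log2 ratio -1.04, 95% interval -1.07 to -1.02). Thermal stress over normal feeding gave 0.73 (0.71 to 0.75) and fasting over normal feeding 0.22 (0.20 to 0.24), neither of them called. Thermal over cold stress was 3.42-fold (1.77, 1.75 to 1.80), the largest ratio of a protein sum between the stress libraries. No read on this unigene fitted another place. The KEGG orthology number that the deposited annotation gives it is that of matrix metalloproteinase-14, and both haptoglobin unigenes carry the number of mannan-binding lectin serine protease 1.

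Hepcidin, the peptide regulator of iron export, had 3 unigenes that did not vary together. Their sum was 6714 fragments in the fasting library, 40224 in the cold stress library, 83616 in the thermal stress library and 22639 in the normal feeding library. The sum gives more weight to the longest unigene, Unigene20901 (1291 bp). Summed as FPKM, which allows for length, hepcidin had 530.6, 2238, 4015 and 1609 FPKM in the same order. The sum of fragments was 3.76-fold lower in the fasting library (log2 ratio of fasting over normal feeding -1.91, 95% interval -1.95 to -1.87). It was 3.61-fold higher in the thermal stress library (1.85, 1.83 to 1.87), where the FPKM sums lie closer to each other. Cold stress over normal feeding gave 0.87 (0.85 to 0.89), which was not called. Thermal over cold stress gave 0.98 (0.96 to 1.00), at the edge of 2-fold, and it was 1.33 with TMM factors.

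Unigene20901 (1291 bp), with a hepcidin of the large yellow croaker as best hit, had 233 fragments in the fasting library, 31437 in the cold stress library, 74596 in the thermal stress library and 9285 in the normal feeding library. Among all unigenes its rank by fragments was 3658 in the fasting library, 83 in the cold stress library, 33 in the thermal stress library and 273 in the normal feeding library. Reads covered 48.3% of its length in the fasting library, 92.6% in the cold stress library, 96.4% in the thermal stress library and 86.5% in the normal feeding library. It was 44.5-fold downregulated in the fasting library (log2 ratio of fasting over normal feeding -5.48, 95% interval -5.67 to -5.29). It was 3.48-fold upregulated in the cold stress library (1.80, 1.77 to 1.83) and 7.84-fold in the thermal stress library (2.97, 2.94 to 3.003), each over normal feeding.

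Unigene17625 (636 bp), whose best hit is a hepcidin of the croaker Miichthys miiuy, shared no reads with the others and was highest under normal feeding. It had 5952 fragments in the fasting library, 3894 in the cold stress library, 7090 in the thermal stress library and 10708 in the normal feeding library. Its log2 ratios over normal feeding were -1.01 for fasting (95% interval -1.05 to -0.96), -1.42 for cold stress (-1.47 to -1.37) and -0.63 for thermal stress. The first is 2.01-fold and was lost with TMM factors (-0.89), the second was called, and the third was not. In the cold stress library this hepcidin was thus lower than under normal feeding while Unigene20901 was higher.

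Unigene30277 (642 bp), also with a hepcidin of the large yellow croaker as best hit, had 529 fragments in the fasting library, 4893 in the cold stress library, 1930 in the thermal stress library and 2646 in the normal feeding library. It fell with fasting (log2 ratio of fasting over normal feeding -2.48, 95% interval -2.62 to -2.35). By fragments it was lower under thermal than under cold stress (-1.42, -1.49 to -1.34), opposite to Unigene20901 (1.17, 1.15 to 1.19). Cold stress (0.93) and thermal stress (-0.49) over normal feeding were not called by fragments. Unigene30277 and Unigene20901 carried the same number of reads fitting several places in each library. These reads were 86.4% of all reads placed on Unigene30277 in the thermal stress library and 60.02% in the cold stress library, so the level of Unigene30277 depends on how they are divided. So do its direction between the stresses and its ratios over normal feeding. Its coverage depth, which includes these reads and is not scaled to library totals, was 3619 reads per base under thermal stress. Under cold stress it was 3144 reads per base and under normal feeding 1318. By depth both stress libraries thus lay above normal feeding, whereas by fragments thermal stress lay below it.

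By fragments, Unigene17625 made up 88.7% of hepcidin in the fasting library (95% Wilson interval 87.9 to 89.4%), 9.68% in the cold stress library (9.40 to 9.97%), 8.48% in the thermal stress library (8.29 to 8.67%) and 47.3% in the normal feeding library (46.6 to 47.9%). Unigene20901 made up 3.47%, 78.2%, 89.2% and 41.0% in the same order. The form with most hepcidin fragments was thus Unigene17625 in the fasting and normal feeding libraries and Unigene20901 in both stress libraries. Per length, Unigene17625 had 479.2 FPKM and Unigene20901 9.24 FPKM in the fasting library, whereas in the thermal stress library they had 622.1 and 3225 FPKM.

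**Figure D4:**
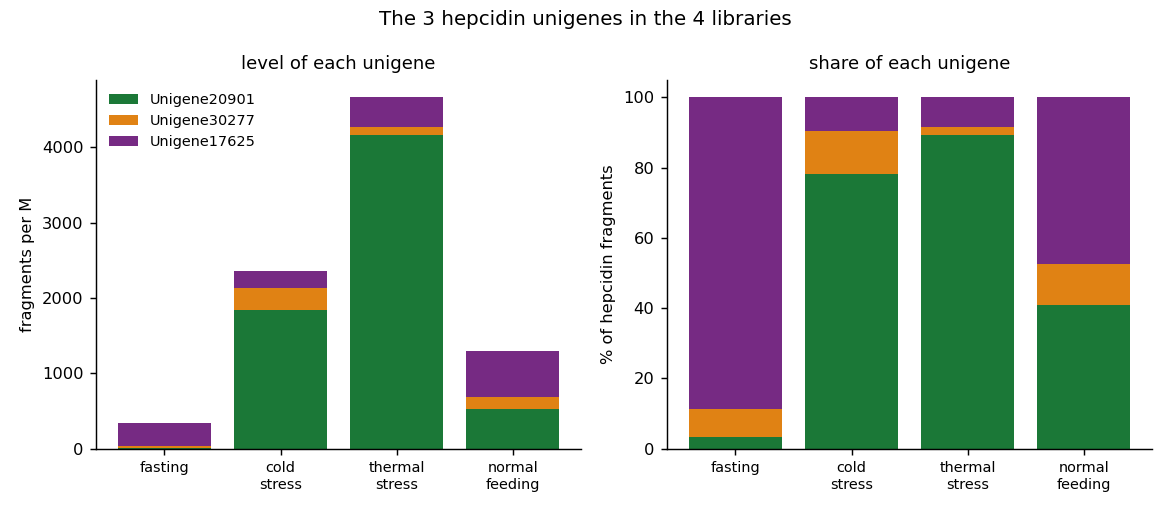
The 3 hepcidin unigenes in the fasting, cold stress, thermal stress and normal feeding libraries, as fragments per M fragments of the library (left) and as a percent of all hepcidin fragments (right). Bars are stacked, with 1 color per unigene. Unigene20901 makes up 89.2% of the hepcidin fragments in the thermal stress library and 3.47% in the fasting library.

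Unigenes of other names whose pattern over the 4 libraries was most like that of a member were sought among the 4409 annotated unigenes that reached 100 fragments in each of the libraries. Likeness was the Euclidean distance between log2 FPKM values centered over the libraries, and it describes 4 values per unigene. For haptoglobin Unigene14605 the nearest were CL546.Contig4, a hypothetical protein (distance 0.15), Unigene17567, canopy-1-like by its best hit but with the KEGG orthology number of citrate synthase (0.28), and CL1913.Contig2, the soluble form of toll-like receptor 5 (0.35). The last had 1116 fragments in the fasting library, 7485 in the cold stress library, 13369 in the thermal stress library and 14245 in the normal feeding library. For WAP65 they were Unigene29808, ribulose-5-phosphate-3-epimerase (0.24), Unigene25774, a G(o) subunit alpha-like protein (0.25), and CL3717.Contig1, 6-phosphofructo-2-kinase/fructose-2,6-bisphosphatase 4-like (0.29). For hepcidin Unigene20901, whose FPKM ranged from 9.24 to 3225, the distances were larger. The distance is not scaled for such a range, and unigenes under 100 fragments in any library were not among the candidates. Whether its pattern is unusual was therefore not tested. The nearest were CL1335.Contig2, biotinidase (2.18), CL3479.Contig1, a hypothetical protein (2.28), and Unigene20951, cysteine dioxygenase (2.55).

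Other genes of iron and heme handling were taken from a list of 27 genes, of which 24 had at least 1 unigene by name and 3 (DMT1, NCOA4 and ATP7A/B) had none. Of their 102 unigenes, 10 were called higher and 18 lower with fasting than with normal feeding. Over all unigenes these shares were 12.8% and 18.2%. The numbers over normal feeding were 21 higher and 17 lower for cold stress (20.8% and 13.8% over all unigenes), and 10 higher and 17 lower for thermal stress (9.60% and 16.1%). Between thermal and cold stress, 11 were higher and 24 lower (12.2% and 24.7%). These counts lie near the shares over all unigenes. Their median log2 ratios were -0.22 for fasting, 0.03 for cold stress, -0.19 for thermal stress and -0.30 for thermal over cold stress, beside -0.10, 0.18, -0.19 and -0.40 over all unigenes. With the fragments of each gene summed, fasting had 1 gene higher and 6 lower than normal feeding, cold stress 2 higher and 5 lower, thermal stress 1 higher and 2 lower, and thermal over cold stress 4 higher and 1 lower. These are counts of the 24 genes. The shares over all unigenes are for single unigenes, and no share over all genes summed in this way was made, so these counts have no background.

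**Figure D5:**
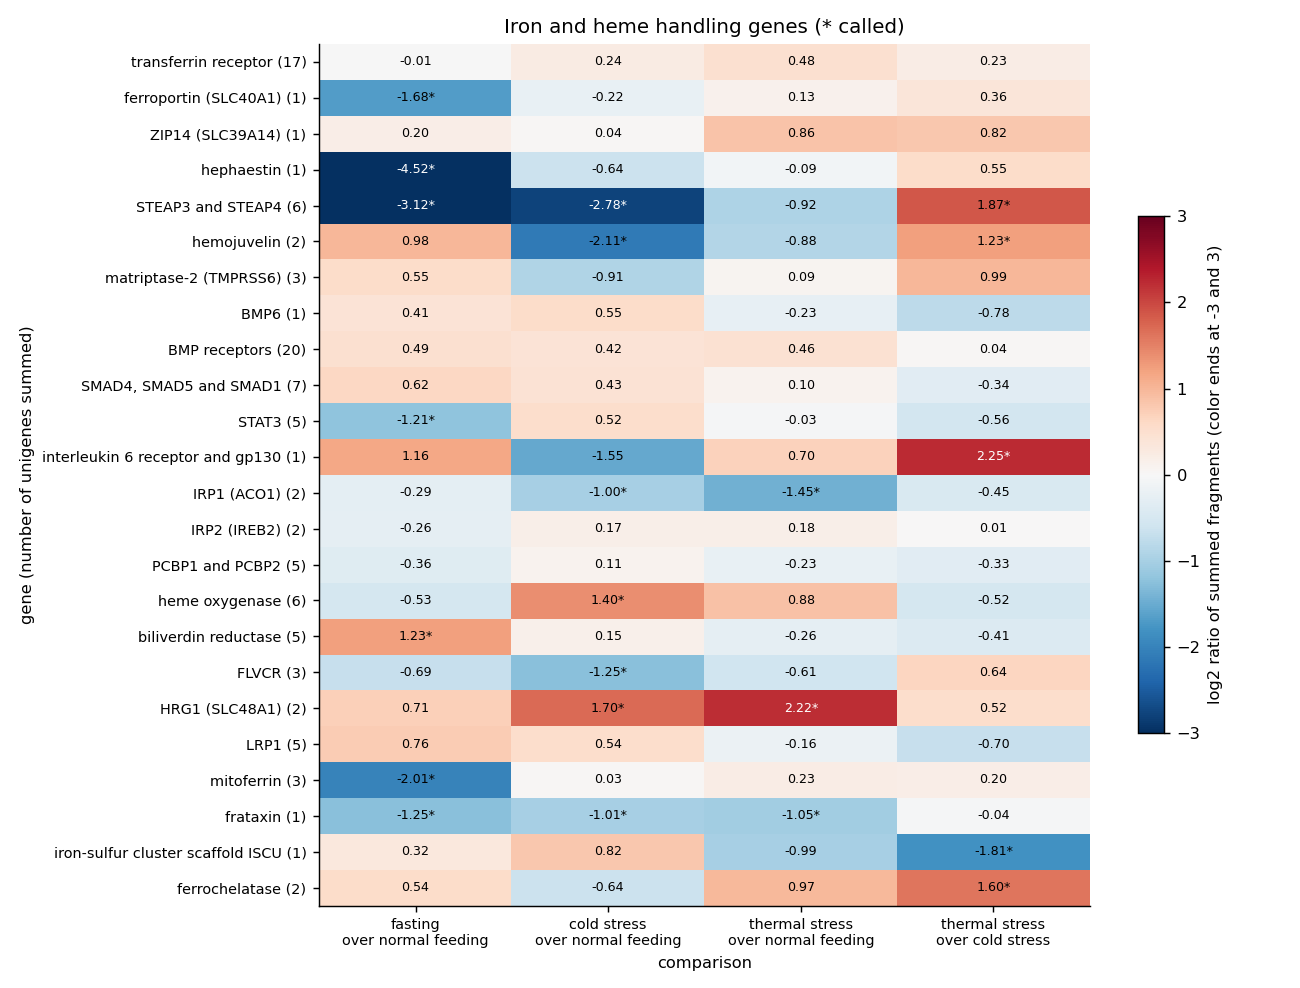
Log2 ratios of summed fragments for the 24 genes of iron and heme handling with a unigene (rows, number of unigenes in parentheses) in the 4 comparisons (columns), first-named library over second. Red is higher and blue is lower in the first-named library, the color scale ends at -3 and 3, and an asterisk marks a call. The lowest ratio is that of hephaestin in fasting over normal feeding (-4.52).

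Of the genes of the list, ferroportin and a hephaestin-like protein were lower in the fasting library than in the normal feeding library. Ferroportin, the iron exporter, had 1620 fragments in the fasting library, 3863 in the cold stress library, 5214 in the thermal stress library and 4638 in the normal feeding library, a log2 ratio of fasting over normal feeding of -1.68 (95% interval -1.76 to -1.59). A hephaestin-like protein, named after the membrane ferroxidase related to ceruloplasmin, had 56, 719, 1110 and 1153 fragments in the same order (-4.52, -4.94 to -4.14). For both genes, the stress libraries lay within 2-fold of normal feeding.

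The metalloreductases STEAP3 and STEAP4, which reduce iron and copper at membranes, had 3962 fragments in the fasting library, 4368 in the cold stress library, 16756 in the thermal stress library and 30878 in the normal feeding library. The sum was lower in fasting (-3.12) and in cold stress (-2.78) than in normal feeding, and higher under thermal than under cold stress (1.87). Nearly all of it was the STEAP4-like Unigene17629, with 3837 fragments with fasting and 30707 with normal feeding. The 5 STEAP3 unigenes had 125 fragments with fasting and 171 with normal feeding, and their sum was not called in any of the 4 comparisons.

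Mitoferrin brings iron into mitochondria. Its fragments were 970 with fasting, 3477 under cold stress, 4206 under thermal stress and 3492 with normal feeding. The sum fell with fasting (-2.01, 95% interval -2.11 to -1.90). The fall was in CL889.Contig1, with 770 fragments with fasting and 3385 with normal feeding. CL889.Contig2 (149 against 76) and CL889.Contig3 (51 against 31) had more fragments with fasting, and neither was called. Depending on the library, between 15.97% and 65.77% of the reads on mitoferrin fitted several places. The part of these reads in the fall was not tested. Frataxin, a mitochondrial protein of iron-sulfur cluster assembly, had 167, 173, 177 and 357 fragments in the order fasting, cold stress, thermal stress, normal feeding. Its log2 ratios over normal feeding were -1.25 for fasting, -1.01 for cold stress and -1.05 for thermal stress. The last was lost with TMM factors (-0.90) and the cold stress call without digestive enzymes in the totals (-0.98). The iron-sulfur scaffold ISCU was lower under thermal than under cold stress (-1.81), with 270 fragments against 897.

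Heme oxygenase and the heme transporter HRG1 were the genes of the list called higher in cold stress than in normal feeding. Heme oxygenase, which opens the heme ring, had 524 fragments over 6 unigenes in the fasting library, 1750 in the cold stress library, 1283 in the thermal stress library and 680 in the normal feeding library. The sum was higher in cold stress than in normal feeding (1.40, 95% interval 1.27 to 1.53), and thermal stress gave 0.88, which was called with TMM factors (1.03). The 2 unigenes of heme oxygenase 1, the inducible form in mammals, had 115 fragments in the fasting library, 612 in the cold stress library, 638 in the thermal stress library and 144 in the normal feeding library. They were higher in cold stress (2.13) and in thermal stress (2.11) than in normal feeding, and 33.1% to 49.8% of their reads were shared. Heme oxygenase 2, the constitutive form in mammals, had 286 fragments in the fasting library, 555 in the cold stress library, 222 in the thermal stress library and 294 in the normal feeding library. Its sum gave 0.96 for cold stress and -0.44 for thermal stress over normal feeding, neither called, and was lower under thermal than under cold stress (-1.40). Its unigenes Unigene17149 (1.05) and Unigene3508 (1.13) were each called higher in cold stress than in normal feeding, and Unigene10355 (0.78) was not. A heme oxygenase-like unigene was lower in fasting (-1.14) and higher in cold stress (1.31) than in normal feeding. Splitting heme oxygenase, STEAP and the transferrin receptor by form was chosen after values were seen.

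HRG1 had 870 fragments in the fasting library, 1511 in the cold stress library, 2287 in the thermal stress library and 478 in the normal feeding library. The sum of its 2 unigenes was upregulated in cold stress (1.70, 95% interval 1.55 to 1.85) and in thermal stress (2.22, 2.08 to 2.37), each over normal feeding. Fasting gave 0.71 and was not called. The rise was in Unigene27263 (hrg1-A), with 1343 fragments in cold stress, 2177 in thermal stress and 350 in normal feeding. Unigene3424 (hrg1-B-like) had 168, 110 and 128 fragments in the same order and was not called. The FLVCR entry, whose 3 unigenes are all named FLVCR2, was lower in cold stress than in normal feeding (-1.25), with 144 fragments against 353 and at least 63.3% shared reads. Biliverdin reductase, the enzyme after heme oxygenase, was higher in fasting than in normal feeding (1.23), with 340 fragments against 130. At least 90.9% of its placed reads fitted several places.

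The regulators of hepcidin known from mammals held few fragments. Hemojuvelin, a co-receptor that raises hepcidin, had 402 fragments in the fasting library, 41 in the cold stress library, 101 in the thermal stress library and 182 in the normal feeding library. It was lower in cold stress than in normal feeding (-2.11, 95% interval -2.64 to -1.62). Fasting gave 0.98, not called, and 1.11 with TMM factors. Thermal over cold stress was called higher (1.23). Matriptase-2, which cleaves hemojuvelin, had 650 fragments in the fasting library, 206 in the cold stress library, 432 in the thermal stress library and 397 in the normal feeding library. Its sum was called only with TMM or median-of-ratios factors. With these it was lower in cold stress than in normal feeding (-1.11 with TMM) and higher under thermal than under cold stress (1.35 with TMM). With library totals its unigene CL2985.Contig2 was called higher in fasting (1.08) and lower in cold stress (-2.10) than in normal feeding. That unigene was also higher under thermal than under cold stress (1.73), and its other unigenes were not called. STAT3, through which interleukin 6 acts on hepcidin, was lower in fasting than in normal feeding (-1.21), with 556 fragments against 1149 and at least 81.7% shared reads. The BMP receptors, BMP6 and SMAD genes were not called as sums in any of the 4 comparisons, with log2 ratios from -0.78 to 0.62. The BMP receptor entry (20 unigenes) also holds unigenes named activin receptor type-1B. Of the 20, 7 were higher and 1 lower in cold stress than in normal feeding (20.8% and 13.8% over all unigenes). Between thermal and cold stress, 3 were higher and 9 lower (12.2% and 24.7%). Of the interleukin 6 receptor, only the beta subunit (gp130) had a unigene by name, with 15 fragments or fewer in every library. It had 10 in the thermal stress library and 2 in the cold stress library (log2 ratio 2.25, 95% interval 0.02 to 5.48). Ferrochelatase, the last enzyme of heme synthesis, was likewise called higher under thermal than under cold stress on 16 fragments against 5 (1.60, 0.09 to 3.41).

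The iron sensor IRP1, a cytosolic aconitase, had 1970 fragments in the fasting library, 1049 in the cold stress library, 811 in the thermal stress library and 2163 in the normal feeding library. It was lower in thermal stress (-1.45) and in cold stress (-1.004) than in normal feeding. The cold stress call was lost without digestive enzymes in the library totals (-0.98). IRP2 was not called in any of the 4 comparisons, with 525 to 656 fragments per library. Transferrin receptor 1, which takes up iron-loaded transferrin, had 516 fragments over 10 unigenes in the fasting library, 524 in the cold stress library, 706 in the thermal stress library and 294 in the normal feeding library, and was higher in thermal stress than in normal feeding (1.23, 95% interval 1.03 to 1.43). Transferrin receptor 2 had 307, 328, 349 and 447 fragments in the same order, and its sum was not called in any of the 4 comparisons. Its unigenes CL289.Contig1 (-1.01), CL289.Contig2 (-2.83), CL289.Contig3 (-1.88) and CL289.Contig5 (-1.78) were called lower in cold stress than in normal feeding. Between thermal and cold stress CL289.Contig3 (1.07) and CL289.Contig5 (2.39) were higher and CL289.Contig4 (-1.58) was lower. At least 93.1% of the reads on receptor 1 and 94.4% of those on receptor 2 fitted several places, so these fragments stand for a small part of the reads.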

How the data were processed

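Paired-end reads of liver mRNA were assembled by the authors without a genome (the study names both Trinity and SOAPdenovo), and unigenes were annotated by BLASTx. The aligner and counter are not given in the sources used here. The authors deposited raw fragment counts per unigene, FPKM values made from them, and per library the reads placed at 1 or several places, the percent of length covered and the coverage depth (signal). The deposited comparison tables hold the authors' fold changes, p-values and FDR and were not used. In all, 0 columns per sample were left unused.

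Each unigene was compared on its fragments by a binomial test (exact, two-sided) scaled to library totals. Intervals are 95% Clopper-Pearson for ratios and Wilson for shares, and cover counting error only. Alternatives used TMM and edgeR's exact test at an assumed coefficient of variation between libraries of 0.2 or 0.4 (edgeR 4.0.16), and size factors (DESeq2 1.42.0, R 4.3.3). Others used adjusted p, a minimum of 10 fragments, 0.5 fragments added, contig clusters summed, totals without digestive enzymes, and uniquely placed reads. A further alternative took the most abundant unigene of each protein by fragments over the 4 libraries together. For hepcidin this is Unigene20901, which is not the most abundant hepcidin in the fasting and normal feeding libraries. Shared reads counted once and other choices of members were added after seeing the data. Ratios with shared reads counted once were scaled to the fragment totals of the libraries. Python 3.11.15, numpy 2.4.6, pandas 2.3.3, scipy 1.17.1 and matplotlib were used. The test was tried on simulated data.

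Named are all protein sums, all member unigenes with at least 100 fragments in any library (others by count), the 3 nearest patterns, and the summed genes of the iron list. Members and lists were chosen with earlier results of these data known. Patterns of the marker and iron lists were corrected for false matches after matches were seen.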

Additional observations from a re-analysis of the deposited data

How the results depend on the processing

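No paired analysis was possible because each condition has 1 library. Of 336 recomputed values, 10 ratios of sums lost their call, 6 gained one, 7 changed sign, and 6 counts of members moved. This is not a measure of robustness, since some alternatives could not change a call. For a protein of 1 unigene the most abundant unigene is the sum itself, and edgeR's exact test kept the main ratio. A count was taken as moved by the number called, whatever its split by direction. The number of members called in fasting over normal feeding was 8, and 5 with median-of-ratios size factors, which lost transferrin, hepcidin Unigene17625 and ferritin Unigene38250. Over all unigenes, library totals gave 12.8% higher and 18.2% lower, and median-of-ratios factors 16.7% higher and 14.1% lower. An assumed coefficient of variation of 0.4 between libraries left 5 members called in fasting, 3 in cold stress and 1 in thermal stress over normal feeding, against 8, 6 and 3. For thermal over cold stress it left 4 against 9. Under it the sums lost were transferrin in fasting (-1.17, p = 0.165), WAP65 (-1.04, p = 0.215) and haptoglobin (-1.04, p = 0.218) in cold stress, and haptoglobin (1.20, p = 0.156) and ferritin M (-1.23, p = 0.146) between the stresses, all by edgeR's exact test. The exact test of edgeR was run on members and sums only, so the member counts under it have no share over all unigenes beside them. All 20 matched unigenes, an alternative added after seeing the data, gave 5 members called in thermal stress over normal feeding. Of these, 3 were higher and 2 lower, beside 9.60% and 16.1% over all unigenes.

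With median-of-ratios factors transferrin in fasting was -0.99. Between thermal and cold stress, ferritin M was -0.88 with TMM and -0.89 with median-of-ratios factors. The hepcidin sum between the stresses was called with TMM (1.33), median-of-ratios factors (1.32), uniquely placed reads (1.01) and its most abundant unigene (1.17), and that unigene was also called in cold stress over normal feeding (1.80). Ferritin H in cold stress was called without digestive enzymes in the totals (1.01). Signs changed, with no value called, for ceruloplasmin (0.11 with TMM, 0.094 with median-of-ratios factors) and ferritin H (0.041 and 0.024) between the stresses and for transferrin in thermal stress over normal feeding (0.025 and 0.0300). Shared reads counted once, also added after seeing the data, gave haptoglobin -0.99 in cold stress, 0.97 between the stresses and -0.0126 in thermal stress. The causes were not tested.

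The falls of haptoglobin, ceruloplasmin and the hepcidin sum with fasting were called under every alternative run. So were the hepcidin sum in thermal stress over normal feeding (1.85) and WAP65 in thermal over cold stress (1.77). At the assumed coefficient of variation of 0.4, edgeR's exact test gave these 2 sums p = 0.0312 and p = 0.0386. Depth limits the scarce ferritins and gp130, and no setting replaces replicate fish.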

Other observations

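The 6 phosphatase unigenes set apart from the members held between 0 and 101 fragments per library. Unigene19800, phosphatase 1 of pyruvate dehydrogenase, had 18 fragments in the fasting library, 50 in the cold stress library, 101 in the thermal stress library and 25 in the normal feeding library. It was called higher in thermal stress (log2 ratio 1.98) and in cold stress (1.04) than in normal feeding.

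Placed reads that fitted several places made up 51.0% of all placed reads in the fasting library, 56.5% in the cold stress library, 56.2% in the thermal stress library and 60.05% in the normal feeding library. In the iron and heme handling list, at least 66.5% of the reads on LRP1, 73.5% on matriptase-2 and 84.6% on the PCBP genes were shared in this way, and their fragments leave most of these reads out.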
